A study of Saccharomyces cerevisiae with 16 samples.

Results

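Ribosome footprints were counted over coding sequences 1 h after depletion of eIF4E, the protein that binds the 5′ cap of mRNA, in 4 of the 16 libraries of a study of Saccharomyces cerevisiae. The 4 libraries were chosen by their labels as ribosome profiling at 1 h, 2 with IAA, the natural auxin (indole-3-acetic acid), and 2 with its solvent DMSO, and every coding sequence in their count files was kept. The files list 6696 coding sequences, of which 6008 carry a locus tag of the reference annotation (build R64) and 6005 of these are protein-coding there. The remaining libraries of the study are RNA at 1 h and RNA and footprints at 8 h, and they are used here only where a 1 h footprint value is set against them.

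Both groups were the haploid strain BY4742 carrying eIF4E-AID, in which the CDC33 gene for eIF4E ends in an auxin-inducible degron that marks the protein for the proteasome when IAA is present. Cells grew in YPD at 30 °C, and the groups differed in 500 µM IAA or DMSO for 1 h. The DMSO controls carry the degron too, and no library without it was used here, so an effect of IAA itself and the effect of losing eIF4E cannot be told apart. The labels name the samples of a group as biological replicates without saying how the cultures were made, and the p-values cover only how far these samples differ. Protein was not measured in these files.

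eIF4E binds the cap and, with the scaffold eIF4G and the helicase eIF4A, brings the small ribosomal subunit to an mRNA. Ribosome profiling sequences the short mRNA fragments that ribosomes protect, so a footprint count follows both how much of an mRNA there is and how densely it is occupied. The counts are relative within a library. A fall in the total number of translating ribosomes therefore leaves no trace in them, and every rise or fall below is a shift in the share that a gene took. A lower share from fewer cells or from less RNA per cell cannot be told apart in bulk samples.

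The DMSO libraries held 8010138 and 6431552 footprints and the IAA libraries 2849721 and 3651300. The 10 most abundant genes took 22.9 and 23.4% of footprints in DMSO and 20.8% in each IAA library. Log2 counts of replicates had Pearson r of 0.995 in DMSO and 0.992 in IAA, across genes, which are not independent replicates. The strain markers deleted in BY4742 (HIS3, LEU2, LYS2 and URA3) had 0 counts in all 4 libraries. All 4 alpha-cell markers passed the low-count filter, and none of the 7 a-cell markers did. Of the listed sequences, 826 had no footprint in any of the 4 libraries, and 5169 passed the filter.

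Footprints moved in small steps for most genes. The middle 90% of the 5169 tested sequences lay between -0.47 and 0.57 on the log2 scale (IAA over DMSO), with a median of 0.01. By edgeR's quasi-likelihood test with Benjamini-Hochberg adjustment over all tested sequences, at an adjusted p under 0.05, 575 were higher with IAA (11.1% of those tested) and 768 were lower (14.9%). With a log2 change of at least 0.58 asked as well, 172 were higher (3.33%) and 94 lower (1.82%), and 57 and 12 of these averaged under 50 counts. DESeq2 gave 67 higher and 52 lower under the same rule. Without IAA replicate 2, adjusted p alone called 292 higher and 503 lower. Counts were scaled by the trimmed mean of M-values (TMM), and levels are given as CPM, the count a gene takes per 1e6 footprints of its library after that scaling. Scaling to total counts instead moved the median of all genes from 0.01 to 0.19 and the fold calls to 512 higher and 13 lower, from 64.7% to 97.5% higher. Changes below are relative to the TMM centre. The IAA values lay above both DMSO values in 1616 of the 5169 sequences and below both in 1560, and only 3 called sequences overlapped. Separate groups in a called gene therefore add little to its call.

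The most abundant genes were called lower more often than the rest. With the tested sequences cut into 5 equal classes by mean level over the 4 libraries, the median log2 change ran from 0.11, 0.07 and 0.05 in the lowest 3 classes to -0.02 and -0.12 in the upper 2. The share called lower ran from 1.84% in the lowest class to 41.2% in the highest, where small changes are measured most precisely, and the share called higher was 5.22% in the lowest class and 11.1 to 14.4% in the others. By coding length the medians differed less, from 0.03 in the shortest of 5 classes to -0.03 in the longest. Calls of the lists below are to be read beside the shares of the level classes and of all sequences.

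**Figure D1:**
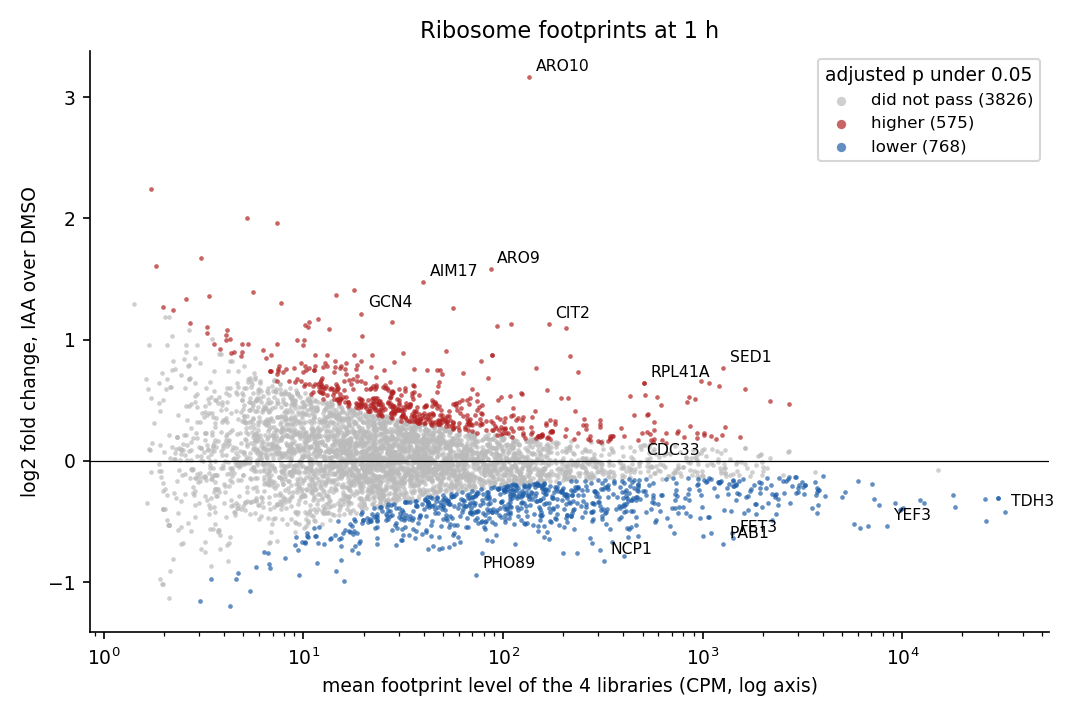
Log2 fold change of ribosome footprints (IAA over DMSO, n = 2 libraries each, y axis) against the mean footprint level of the 4 libraries in CPM (x axis, log scale), 1 point per tested coding sequence, coloured by the call at an adjusted p under 0.05. The points scatter most at low levels, ARO10 stands highest at 3.16, and the points at the highest levels lie mostly under 0.

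CDC33 (YOL139C, chromosome XV, 60383 to 61024 on the minus strand of R64) itself kept its footprints. Its level was 487 and 488 CPM in DMSO and 509 and 462 CPM in IAA. The IAA values lay on either side of the DMSO values, and the log2 change was -0.01 ± 0.06 (SE, adjusted p = 0.94), which turned to 0.17 under total-count scaling. By the same edgeR test its RNA at 1 h was called lower (-0.39 ± 0.11, adjusted p = 0.0349). The footprint change less the RNA change was not called (0.32 ± 0.14, adjusted p = 0.13). The degron acts on the protein, so these levels say nothing about the depletion. Of the 13 tested genes of eIF4F and its partners, 1 rose and 5 fell, with a median of -0.05 that becomes 0.14 under total-count scaling. Without IAA replicate 2 only 2 of the list were called lower, and without IAA replicate 1 only 3.

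PAB1, the poly(A)-binding protein that contacts eIF4G, fell most in that list. Its footprints were 1573 and 1563 CPM in DMSO against 969 and 975 CPM in IAA, a log2 change of -0.69 ± 0.05 (adjusted p = 4.11e-14). The groups were far apart. CAF20 encodes a protein that competes with eIF4G for eIF4E, and it had 207 and 204 CPM in DMSO and 141 and 123 CPM in IAA (-0.65 ± 0.07, adjusted p = 7.96e-10). Its IAA values were both below its DMSO values.

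Other initiation factors went both ways in small steps. DED1, an RNA helicase that helps scanning, had 776 and 773 CPM in DMSO and 937 and 949 CPM in IAA (0.28 ± 0.05, adjusted p = 4.51e-05), a rise that was not called in a fit of all 8 footprint libraries. TIF11 (eIF1A) rose by 0.31 ± 0.07 (adjusted p = 0.000389), and GCD2, a subunit of the exchange factor eIF2B, by 0.34 ± 0.07 (adjusted p = 0.000449), with no overlap between groups in either. PRT1, a subunit of eIF3, had 517 and 501 CPM in DMSO and 421 and 454 CPM in IAA (-0.22 ± 0.06, adjusted p = 0.00395), and GCD1, of eIF2B like GCD2, had 133 and 137 CPM in DMSO and 109 and 117 CPM in IAA (-0.25 ± 0.07, adjusted p = 0.00768). Both falls were lost without IAA replicate 1, under total-count scaling and in the fit of all 8 footprint libraries, and that of GCD1 also without DMSO replicate 2 and with DESeq2. Of the 9 genes of eIF3, eIF1, eIF1A and eIF5, 2 rose and 1 fell, and of the 9 of eIF2, eIF2B and eIF5B, 3 rose and 3 fell. The medians were -0.02 and -0.04, and they became 0.16 and 0.14 under total-count scaling. These calls were few and unsteady, since the second list had 1 higher and none lower without DMSO replicate 2 or IAA replicate 1, 1 and 1 without IAA replicate 2, and 2 and 2 without DMSO replicate 1. The first list had 1 and 1 without DMSO replicate 1, DMSO replicate 2 or IAA replicate 2, and 2 and none without IAA replicate 1.

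Of the 12 largest rises, 4 were in genes of aromatic amino acid breakdown or of arginine synthesis. ARO10 and ARO9 act in the Ehrlich pathway, as phenylpyruvate decarboxylase and aromatic aminotransferase, and the zinc-cluster activator Aro80 is known to switch both on when aromatic amino acids are plentiful. Arginine synthesis is a textbook target of Gcn4, the activator of amino acid synthesis whose own translation is set by short upstream reading frames. The stretches of promoter DNA that hold the letters of these activators' sites are shown for the 2 Ehrlich genes and for 3 arginine genes that rose, as 30 bases each, read 5′ to 3′ on the gene's strand from the R64 genome. Capitals mark the searched letters, CCGNNNNNNNCCG (or its reverse complement) for Aro80 and TGACTC (or its reverse complement) for Gcn4:
ARO10: gataccttCGGTAAGTGTCGGtatgtaata
ARO9: gagatttgCCGCGGATAACCGaaccatcat
ARG1: tgccgtatggaaGAGTCAtttaaaggcagg
ARG3: agggtcacgtcgTGACTCatatgctttctt
ARG4: ttagtagatgaaTGACTCactttttggata

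The ARO10 stretch lies at chrIV:1233953-1233982 and that of ARO9 at chrVIII:375556-375585, both on the plus strand, and the stretches of ARG1 (chrXV:218925-218954) and ARG3 (chrX:268473-268502) are on that strand too. That of ARG4 (chrVIII:141564-141593) is on the minus strand. All are upstream of the start codon and outside their own coding sequence. In the 500 bases before the start codon, ARO10 holds 4 copies of the Aro80 letters and ARO9 holds 5, and 320 of 6006 such windows of all genes hold any (5.33%). Among all tested genes that hold them, 11.4% were called higher in footprints and 19.7% lower, against 11.2% and 14.5% of genes without. ARO80 itself has 1 copy, at 9.54 and 9.51 CPM in DMSO and 11.9 and 8.75 CPM in IAA, with a log2 change of 0.09 ± 0.22 (adjusted p = 0.823) that was -0.12 without IAA replicate 1.

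The Gcn4 letters occur in all 10 arginine windows and in 760 of 6006 windows (12.7%). They were also in 10 of 11 purine windows and 9 of 11 branched-chain windows. Serine, glycine and threonine had them in 8 of 12 and histidine in 5 of 6. In footprints these lists had, in that order, none higher and 8 lower, 1 and 4, none and 2, and 1 and none. Aromatic synthesis (6 of 12 windows) had 3 higher and 1 lower, and lysine (3 of 8) had 2 and 1. Among all tested genes that hold the Gcn4 letters, 10.7% were called higher in footprints and 14.8% lower, against 11.2% and 14.8% of genes without. For RNA at 1 h the shares called higher were 24.0% with the letters and 19.1% without. A match to such short letters is a description and not a bound site.

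ARO10 (YDR380W, chromosome IV, 1234218 to 1236125) rose more than any other tested gene. Its footprints were 27.1 and 27.6 CPM in DMSO and 222 and 265 CPM in IAA, a log2 change of 3.16 ± 0.09 (adjusted p = 3.73e-29). ARO9 (YHR137W, chromosome VIII, 375709 to 377250) had 42.5 and 44.6 CPM in DMSO and 129.5 and 131 CPM in IAA (1.58 ± 0.09, adjusted p = 2.38e-18). In both genes every IAA value stood above every DMSO value by far more than the replicates differed. ARO1, an enzyme with several activities on the way to chorismate, from which aromatic amino acids are made, had 414 and 398 CPM in DMSO and 386 and 392 CPM in IAA (-0.06 ± 0.06, adjusted p = 0.46, and 0.12 under total-count scaling). The Ehrlich pathway as a list of 14 tested genes did not move one way, with 3 higher, 2 lower and 9 that did not pass and a median of 0.06.

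GCN4 (YEL009C, chromosome V, 138918 to 139763) had 12.6 and 10.5 CPM in DMSO and 31 and 23.9 CPM in IAA (1.21 ± 0.17, adjusted p = 2.43e-07). Both IAA values stood above both DMSO values, and the IAA replicates were further from each other than the controls were. PCL5, the cyclin that targets Gcn4 for destruction and is itself made under Gcn4 control, had 8.33 and 8.53 CPM in DMSO and 9.23 and 8.75 CPM in IAA (0.09 ± 0.23, adjusted p = 0.827).

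Arginine synthesis rose as a group, by 7 of 10 tested genes with none lower and a median of 0.73. ARG3, ornithine carbamoyltransferase, had 9.14 and 6.89 CPM in DMSO and 22.1 and 20.1 CPM in IAA (1.37 ± 0.19, adjusted p = 2.39e-07). ARG4, argininosuccinate lyase and the last step, had 67.6 and 71 CPM in DMSO and 144 and 157 CPM in IAA (1.13 ± 0.08, adjusted p = 7.11e-15). The 2 IAA libraries were above both controls in each.

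ARG1, argininosuccinate synthetase, had 52.4 and 60.5 CPM in DMSO and 89.7 and 108 CPM in IAA (0.82 ± 0.09, adjusted p = 3.14e-09). Both IAA libraries were above both controls, with IAA replicate 2 the higher. ARG7, ARG8 and ARG56 (the ARG5,6 gene, whose product is cut into a pair of enzymes) act on acetylated intermediates and rose by 0.73 ± 0.10, 0.81 ± 0.19 and 0.54 ± 0.12.

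The remaining 3 did not pass. CPA1, a carbamoyl phosphate synthetase gene of this pathway, had 52.1 and 55.1 CPM in DMSO and 47.8 and 61 CPM in IAA (0.04 ± 0.11, adjusted p = 0.829). ARG2, the first enzyme, had 0.16 ± 0.20 (adjusted p = 0.616), and ORT1, the mitochondrial ornithine exporter, 0.19 ± 0.23 (adjusted p = 0.577). Each of these 3 values changed sign when 1 library was left out, reaching -0.16 in CPA1, -0.041 in ARG2 and -0.054 in ORT1 without IAA replicate 2. The 7 calls of the list held without each library in turn.

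Other large rises were of mixed function. HOR7, a small gene known to respond to high osmolarity, had 40.3 and 25.4 CPM in DMSO and 78.1 and 81.5 CPM in IAA (1.26 ± 0.12, adjusted p = 7.51e-11), and its 2 controls were apart from each other. CIT2, the peroxisomal citrate synthase, had 110.4 and 102 CPM in DMSO and 237 and 229 CPM in IAA (1.13 ± 0.07, adjusted p = 6.1e-17). AGA1, the anchor of the agglutinin on mating cells, had 59 and 59.7 CPM in DMSO and 122 and 134 CPM in IAA (1.11 ± 0.08, adjusted p = 4.11e-14). In CIT2 and AGA1 the IAA libraries stood well above the controls, with replicates close together.

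AIM17, of unknown molecular function, had 20.7 and 21.3 CPM in DMSO and 62.3 and 55 CPM in IAA (1.47 ± 0.12). PHM8, a nucleotide phosphatase made in phosphate shortage, had 8.87 and 10.8 CPM in DMSO and 27.4 and 24.7 CPM in IAA (1.41 ± 0.17). The 16 tested genes of phosphate starvation had 1 higher and 10 lower, with a median of -0.25 (-0.07 under total-count scaling). ATG41, an autophagy gene, had 17.9 and 16.7 CPM in DMSO and 38.2 and 38.6 CPM in IAA (1.15 ± 0.13). YER079W, an uncharacterised gene, had 7.52 and 6.89 CPM in DMSO and 18.1 and 14.9 CPM in IAA (1.17 ± 0.20). Separate groups were asked by the rule that picked these genes, and the adjusted p was at most 1.83e-05, that of YER079W.

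**Figure D2:**
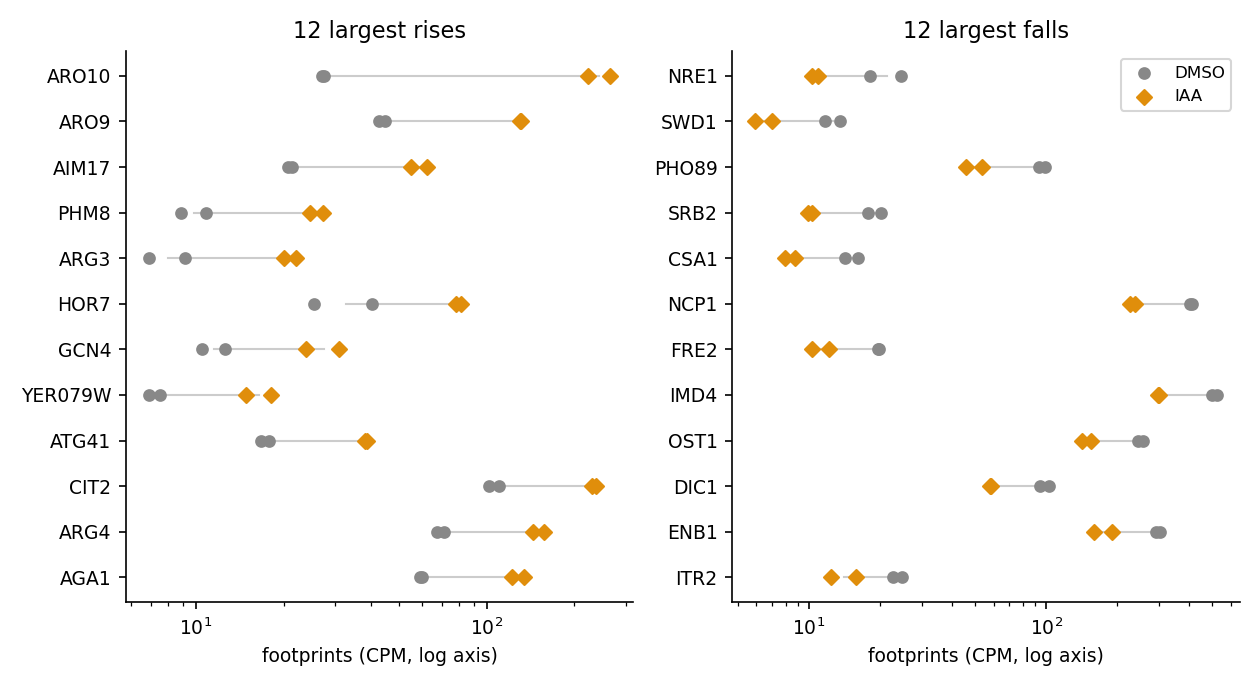
Footprint levels in CPM (x axis, log scale) of the 12 genes with the largest rises (left) and the 12 with the largest falls (right) among called genes that average 50 counts or more, 1 point per library and a line from the DMSO mean to the IAA mean. ARO10 moves furthest, from 27.1 and 27.6 to 222 and 265 CPM, and no falling gene moves by more than 0.99 on the log2 scale.

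The largest falls were smaller than the largest rises. PHO89, ENB1, FRE2, OST1, DIC1, ITR2 and NCP1 among them encode membrane proteins. PHO89, a sodium-phosphate cotransporter of the plasma membrane, had 99.1 and 93.2 CPM in DMSO and 46.1 and 53.5 CPM in IAA (-0.94 ± 0.09, adjusted p = 1.52e-10). NCP1, the reductase that feeds electrons to the cytochrome P450 steps of ergosterol synthesis, had 404 and 413 CPM in DMSO and 236 and 227 CPM in IAA (-0.82 ± 0.06, adjusted p = 4.11e-14). DIC1, the mitochondrial dicarboxylate carrier, had 102 and 93.8 CPM in DMSO and 58.3 and 57.9 CPM in IAA (-0.76 ± 0.09, adjusted p = 7.61e-09). The IAA libraries were well below the controls in all 3.

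IMD4, an IMP dehydrogenase of GMP synthesis, had 524 and 501 CPM in DMSO and 301 and 296 CPM in IAA (-0.78 ± 0.06, adjusted p = 5.65e-14). It shares sequence with its paralogue IMD3, so its own value is uncertain. ITR2, a myo-inositol transporter, had 22.6 and 24.6 CPM in DMSO and 15.8 and 12.3 CPM in IAA (-0.76 ± 0.17, adjusted p = 0.000557), and it did not pass without IAA replicate 2 (-0.57). SWD1, a subunit of the COMPASS histone methylase, had 11.7 and 13.4 CPM in DMSO and 5.93 and 6.95 CPM in IAA (-0.94 ± 0.23, adjusted p = 0.00182). NRE1 had 18 and 24.4 CPM in DMSO and 10.9 and 10.3 CPM in IAA (-0.99 ± 0.19, adjusted p = 0.000108), and CSA1 14.2 and 16.1 CPM in DMSO and 7.91 and 8.75 CPM in IAA (-0.85 ± 0.21, adjusted p = 0.00168). These 4 low genes were picked by a rule that asked for separate groups, and DESeq2 gave no adjusted p for SWD1 and CSA1.

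Genes of the endoplasmic reticulum (ER) fell together. Secretory and membrane proteins enter the ER through the Sec61 channel, are folded by chaperones there and receive sugar chains from the oligosaccharyltransferase. Of the 14 tested genes of ER translocation and folding, 11 fell and none rose, with a median of -0.40 (-0.22 under total-count scaling), and 10 or 11 were lower without each library in turn. SEC61, the channel itself, had 422 and 437 CPM in DMSO and 269 and 271 CPM in IAA (-0.67 ± 0.06, adjusted p = 5.15e-12). SSH1, its homologue, had 328 and 317 CPM in DMSO and 236 and 246 CPM in IAA (-0.42 ± 0.06, adjusted p = 6.16e-07). The IAA values lay below the controls in both, and SEC61 lost the larger share.

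The chaperone KAR2 (BiP) had 949.7 and 933 CPM in DMSO and 712 and 684 CPM in IAA (-0.43 ± 0.05, adjusted p = 2.24e-08). PDI1, which forms disulfide bonds, had 1091 and 1145 CPM in DMSO and 865 and 853 CPM in IAA (-0.38 ± 0.05, adjusted p = 2.29e-07). Each gene's IAA libraries were below its controls. In RNA 12 of the 14 genes of the list were lower and none higher, with a median of -0.36, where 25.2% of the features tested in footprints were lower in RNA and 20% higher. KAR2 fell by 1.35 in RNA and PDI1 fell by 0.86.

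A list of 27 genes of N-glycosylation in the ER was added after values had been seen, so its counts describe it and are not independent evidence. The other lists were chosen with earlier results of these data known, so their counts are not independent evidence either. Of these, 17 fell and 1 rose, with a median of -0.42 (-0.24 under total-count scaling). In RNA 16 of the 27 were lower and 3 higher, with a median of -0.26. OST1, a subunit of the oligosaccharyltransferase, had 245 and 257 CPM in DMSO and 154 and 142 CPM in IAA (-0.76 ± 0.07, adjusted p = 2.4e-12). STT3, the catalytic subunit, had 338 and 344 CPM in DMSO and 215 and 212 CPM in IAA (-0.67 ± 0.06, adjusted p = 8.09e-12). WBP1, another subunit, fell by 0.44 ± 0.06. All 3 had both IAA libraries under both controls.

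The enzymes that build the sugar chain on its lipid carrier were lower too. SEC53, which makes mannose-1-phosphate for the pathway, had 544 and 604 CPM in DMSO and 341 and 401 CPM in IAA (-0.62 ± 0.06, adjusted p = 3.17e-10). ALG7, the first step, had 53.5 and 56.7 CPM in DMSO and 32.3 and 35 CPM in IAA (-0.70 ± 0.11, adjusted p = 5.8e-06), and ALG6, a glucosyltransferase, had 67 and 66.3 CPM in DMSO and 39.9 and 41.4 CPM in IAA (-0.71 ± 0.10, adjusted p = 7.44e-07). The IAA libraries were below the controls in each, with little spread. The mannosyltransferases ALG3 and ALG1 had changes of -0.69 ± 0.14 and -0.56 ± 0.12, both called.

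Iron uptake fell in footprints at nearly unchanged median RNA. Yeast takes up iron through the oxidase-permease pair Fet3 and Ftr1, after reduction by surface reductases, or as siderophore complexes through dedicated transporters. Of 13 tested genes of iron uptake, 10 fell and none rose, with a median of -0.42 (-0.24 under total-count scaling). In RNA 2 of the 13 were higher and none lower, with a median of 0.02. FET3 had 1699 and 1764 CPM in DMSO and 1099 and 1129 CPM in IAA (-0.64 ± 0.05, adjusted p = 2.44e-13), and FTR1 had 325 and 341 CPM in DMSO and 199 and 226 CPM in IAA (-0.64 ± 0.06, adjusted p = 1.31e-10). Both partners lost about the same share, with the groups far apart.

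The siderophore transporters ENB1, ARN1 and ARN2 had changes of -0.76 ± 0.07, -0.69 ± 0.08 and -0.59 ± 0.07, all called. ENB1, which takes up enterobactin, had 301 and 292 CPM in DMSO and 159.5 and 189 CPM in IAA. The reductase FRE2 had 19.6 and 19.7 CPM in DMSO and 12.2 and 10.3 CPM in IAA (-0.82 ± 0.18, adjusted p = 0.000565). FET5, a vacuolar relative of FET3, fell by 0.65 ± 0.09. In a narrower list of 12 surface and siderophore proteins, added after values had been seen, 10 fell and none rose, with a median of -0.64.

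Zinc and copper uptake had 7 tested genes, of which 3 fell and none rose, with a median of -0.15 that becomes 0.04 under total-count scaling. ZRT2, the low-affinity zinc transporter, had 30.5 and 26.6 CPM in DMSO and 17.8 and 19 CPM in IAA (-0.63 ± 0.15, adjusted p = 0.00107), with the groups apart. DESeq2 called 1 of the 7.

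Lower footprints of membrane proteins were also visible across all genes when the proteins were classed by sequence. A hydrophobic segment was a stretch where the mean Kyte-Doolittle hydropathy of 19 residues, translated from the reference coding sequence, exceeded 1.6, which is how a membrane-spanning helix looks to this scale. Of 3651 tested genes with no such segment, 11.8% were lower and 12.5% higher, with a median of 0.04. Of 212 genes with 4 to 7 segments, 34.9% were lower and 3.30% higher, with a median of -0.20, and of 142 genes with 8 or more, 39.4% were lower and 3.52% higher, with a median of -0.25. Genes with 1 segment and with 2 to 3 lay between, at -0.02 and -0.05. Under total-count scaling the medians were 0.22 with none, -0.02 with 4 to 7 and -0.06 with 8 or more, so the order stayed and the centre moved.

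Segment number and level were not the same division. In the highest of 4 equal classes of genes by level, the median was -0.08 for 922 genes with no segment, -0.30 for 50 genes with 4 to 7 and -0.39 for 40 genes with 8 or more. In the class below it the medians were 0.06, -0.18 and -0.25. In the lower 2 classes the medians with segments were nearer 0 and their order did not hold throughout, at 0.10, -0.17 and -0.11 in the upper of them and 0.12, 0.0028 and -0.08 in the lowest. There 18.2 and 15.2% of the genes with 4 to 7 and with 8 or more segments were called lower in the upper class, and 6.67 and 4.0% in the lowest. Genes with no segment had 3.20% called lower in the upper class and 1.47% in the lowest. The RNA medians of the same classes over all levels went from -0.07 with no segment to 0.03 with 8 or more, and the medians of the footprint change less the RNA change from 0.07 to -0.32. At 8 h the footprint medians were 0.03 with none, -0.22 with 4 to 7 and 0.04 with 8 or more. These are descriptions across genes, which share their libraries, and carry no test.

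**Figure D3:**
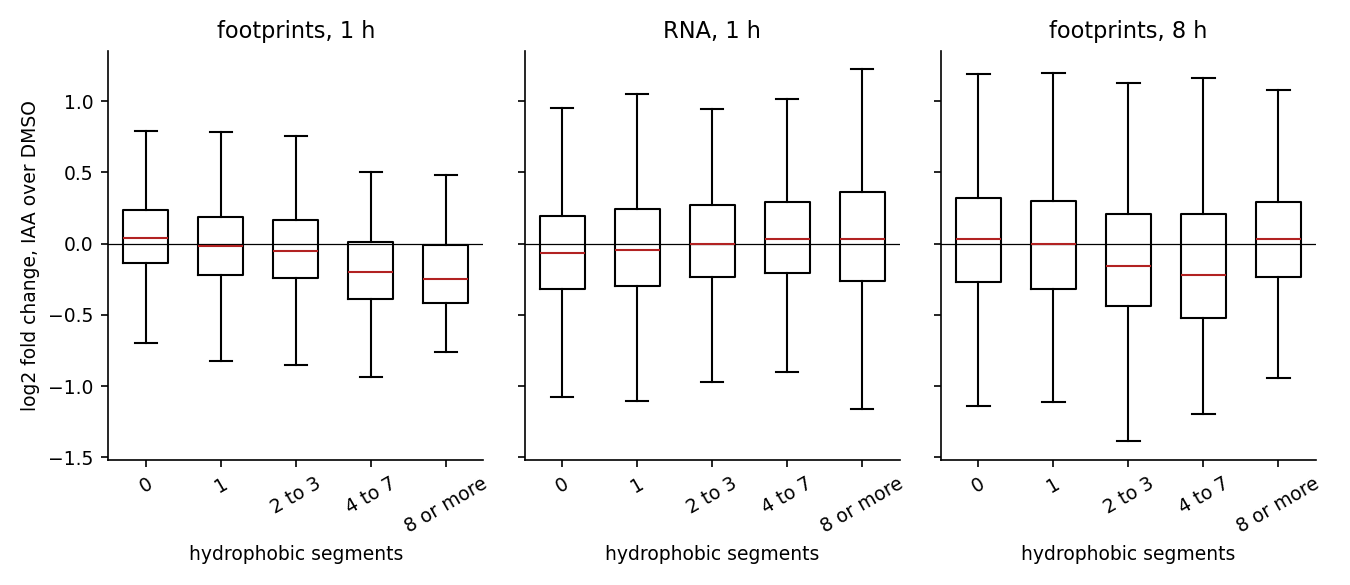
Log2 fold change (y axis) by number of hydrophobic segments in the protein (x axis, 5 classes of 3651, 796, 332, 212 and 142 tested genes), in 3 panels for footprints at 1 h, RNA at 1 h and footprints at 8 h, with the box from the lower to the upper quartile, the line at the median, whiskers to 1.5 times the box and points beyond them not drawn. The 1 h footprint medians go down from 0.04 to -0.25 with the number of segments, and those of RNA from -0.07 up to 0.03.

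Ergosterol synthesis, much of which takes place in the ER membrane, had 14 of 24 tested genes lower and none higher, with a median of -0.31 (-0.13 under total-count scaling). ERG3, the C-5 sterol desaturase, had 514 and 525 CPM in DMSO and 347 and 366 CPM in IAA (-0.54 ± 0.06, adjusted p = 7.32e-10). ERG11, the P450 demethylase served by NCP1, had 535 and 555 CPM in DMSO and 379 and 377 CPM in IAA (-0.53 ± 0.06, adjusted p = 1.08e-09). ERG2, the C-8 isomerase, and ERG24, the C-14 reductase, had changes of -0.56 ± 0.06 and -0.55 ± 0.09, both called. All 4 had both IAA values under both DMSO values. In RNA 17 of the 24 genes were lower, beside 25.2% of all features.

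Hexose transport had 6 of 10 tested genes lower and none higher, with a median of -0.35 (-0.17 under total-count scaling). HXT1, the low-affinity glucose transporter, had 294 and 296 CPM in DMSO and 221 and 231 CPM in IAA (-0.38 ± 0.06, adjusted p = 3.86e-06). HXT3, of low affinity as well, had 434 and 455 CPM in DMSO and 346 and 341 CPM in IAA (-0.37 ± 0.06, adjusted p = 3.04e-06), and HXT2, of high affinity, had 473 and 474 CPM in DMSO and 361 and 390.0 CPM in IAA (-0.33 ± 0.06, adjusted p = 1.94e-05). The 3 transporters lost similar shares of footprints. Their RNA fell too, with log2 changes of -1.16 in HXT1, -1.58 in HXT3 and -1.83 in HXT2.

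The elongation machinery was lower. Of 11 tested elongation factor genes, 10 fell and none rose, with a median of -0.31 (-0.13 under total-count scaling). In the highest class by level 41.2% were called lower, with a median of -0.12, beside 14.9% of all features. YEF3, the fungal factor eEF3, had 10024 and 9831 CPM in DMSO and 6764 and 6898 CPM in IAA (-0.54 ± 0.04, adjusted p = 5.65e-14). EFT1 and EFT2 encode the same protein, eEF2, and their near-identical reads cannot be assigned to either with certainty. EFT1 had 10959 and 11249.5 CPM in DMSO and 8372 and 8412 CPM in IAA (-0.40 ± 0.04), and EFT2 changed by the same -0.40 ± 0.04. TEF1 and TEF2, both for eEF1A and equally alike, each fell by 0.31 ± 0.03. The copies of a pair may thus not be separate measurements in the list's counts, median and share of footprints. The whole list took 9.89 and 10.1% of footprints in DMSO and 8.94 and 8.91% in IAA.

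Of 7 tested genes of ribosome-bound chaperones 4 fell and 1 rose, with a median of -0.14 that becomes 0.04 under total-count scaling, and the rise was not called without DMSO replicate 1, DMSO replicate 2 or IAA replicate 1. SSB1 and SSB2, close copies that fold new chains, had changes of -0.56 ± 0.04 and -0.52 ± 0.04, both called. SSB1 had 7332 and 7313 CPM in DMSO and 5029 and 4918 CPM in IAA.

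Ribosomal proteins went both ways. Their lower calls stand beside 14.9% of all features and 41.2% of the highest class by level. Of 76 tested genes of the large subunit, 28 fell and 11 rose, with a median of -0.09, and of 56 of the small subunit, 22 fell and 8 rose, with a median of -0.10, and these medians became 0.09 and 0.08 under total-count scaling. They were -0.025 and -0.031 without DMSO replicate 1 and -0.15 and -0.14 without DMSO replicate 2. Leaving out a library moved the lower calls of the large subunit to 15 (without IAA replicate 2) and 43 (without DMSO replicate 2), and those of the small subunit to 8 and 27 with the same libraries. Without DMSO replicate 1 they were 22 and 13, and without IAA replicate 1 they were 19 and 13. The higher calls moved too. In the large subunit they went up without DMSO replicate 1 and down without any other library, and in the small subunit they went down each time. The small subunit took 8.37 and 7.98% of all footprints in DMSO and 8.51 and 8.55% in IAA.

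At the upper end was RPL41A, which encodes a protein of very few residues. It had 354 and 442 CPM in DMSO and 672 and 569.5 CPM in IAA (0.64 ± 0.07, adjusted p = 1.98e-09), with all 4 values apart and the groups separate. RPL41B, its copy, had the same counts in every library, so the reads of the pair cannot be assigned to either. RPL29 had 744 and 654 CPM in DMSO and 899 and 1051 CPM in IAA (0.48 ± 0.06, adjusted p = 4.86e-08). At the lower end were RPL4A (-0.43 ± 0.04), RPL4B (-0.39 ± 0.05) and RPS0A (-0.41 ± 0.05). RPS9A had 505 and 537 CPM in DMSO and 729 and 702 CPM in IAA (0.46 ± 0.06, adjusted p = 1.44e-08), while its paralogue RPS9B had 2435 and 2422 CPM in DMSO and 2002 and 2015 CPM in IAA (-0.27 ± 0.05, adjusted p = 1.42e-05). The RPS9B fall did not pass under total-count scaling.

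Aminoacyl-tRNA synthetases, which charge tRNAs, had 10 of 22 tested genes lower and none higher, with a median of -0.10 (0.08 under total-count scaling), and 6 lower without IAA replicate 2. HTS1, for histidine, had 374 and 369 CPM in DMSO and 273 and 279.6 CPM in IAA (-0.43 ± 0.06, adjusted p = 2.44e-07). ALA1, for alanine, had 893 and 914 CPM in DMSO and 723 and 741 CPM in IAA (-0.30 ± 0.05, adjusted p = 2.03e-05), and VAS1, for valine, fell by 0.28 ± 0.05 (adjusted p = 4.27e-05). The falls of ALA1 and VAS1 did not pass under total-count scaling. The 10 lower calls of the list stand beside 14.9% of all features and 41.2% of the highest class by level.

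Most of the genes with the most footprints were glycolytic, and they were lower with IAA. Of 9 tested genes of lower glycolysis, from triose phosphate to pyruvate, 8 fell, with a median of -0.32 (-0.14 under total-count scaling), and the list took 13.7 and 13.8% of footprints in DMSO and 12.3 and 12.2% in IAA. These lower calls stand beside 41.2% in the highest class by level, whose median was -0.12. TDH3, glyceraldehyde-3-phosphate dehydrogenase, had 37655 and 37287 CPM in DMSO and 28103 and 27709.6 CPM in IAA (-0.43 ± 0.03, adjusted p = 4.76e-13). PDC1, pyruvate decarboxylase on the way to ethanol, had 30614 and 30548 CPM in DMSO and 21364 and 22021 CPM in IAA (-0.50 ± 0.04, adjusted p = 2.84e-14). Replicates were within a few percent of each other, so both falls were many times their spread.

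ENO2 and ENO1 (enolases, near copies) each fell, at -0.32 ± 0.04, as did TDH2 (a near copy of TDH3, -0.38 ± 0.04), CDC19 (pyruvate kinase, -0.28 ± 0.04) and ADH1 (alcohol dehydrogenase, -0.34 ± 0.04). FBA1, aldolase, was an exception among the 10 most abundant genes, at 15496 and 15299.7 CPM in DMSO and 14645 and 14560.3 CPM in IAA (-0.08 ± 0.04, adjusted p = 0.129, and 0.11 under total-count scaling). Of the 8 genes of upper glycolysis 5 fell, among them PFK1 (phosphofructokinase, -0.42 ± 0.05) and HXK2 (hexokinase, -0.30 ± 0.05).

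Genes of nucleotide synthesis were lower in part. All 4 genes of GMP synthesis fell, with a median of -0.37 (-0.18 under total-count scaling), and GUA1, GMP synthase, had 995 and 1003 CPM in DMSO and 717 and 743 CPM in IAA (-0.45 ± 0.05, adjusted p = 6.7e-09). Of 11 purine genes 8 fell and none rose. Of 8 pyrimidine genes 4 fell, with a median of -0.17 that becomes 0.02 under total-count scaling, and URA2, the enzyme of the first steps, had 1236 and 1205 CPM in DMSO and 770.3 and 818 CPM in IAA (-0.62 ± 0.05, adjusted p = 1.92e-12). The IAA libraries were below the controls in both genes.

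Of 12 tested genes of serine, glycine and threonine 2 fell and 10 did not pass, with a median of -0.08 (0.10 under total-count scaling), a share near that of all features (14.9%). SHM1 among them, the mitochondrial serine hydroxymethyltransferase, had 376 and 386 CPM in DMSO and 237 and 221 CPM in IAA (-0.73 ± 0.06, adjusted p = 9.62e-13). Of 11 genes of methionine and S-adenosylmethionine, 7 fell and none rose, with a median of -0.31 (-0.13 under total-count scaling). MET6 (methionine synthase, -0.54 ± 0.05) and SAM1 (S-adenosylmethionine synthetase, -0.59 ± 0.05) were among them, both with groups that did not overlap. MET5, of sulfite reductase, had 50.4 and 49.4 CPM in DMSO and 40.9 and 36.5 CPM in IAA (-0.38 ± 0.11, adjusted p = 0.0109), a fall that was not called without IAA replicate 2 (-0.29).

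Cell wall genes were split, with 6 of 20 tested genes higher and 5 lower and a median of 0.05, and 2 lower without IAA replicate 2. SED1, an abundant wall protein held by a lipid anchor, had 1044 and 832 CPM in DMSO and 1541 and 1655 CPM in IAA (0.77 ± 0.06, adjusted p = 6.53e-13). PIR1, of the wall proteins with internal repeats, had 995 and 901 CPM in DMSO and 1459.9 and 1447 CPM in IAA (0.62 ± 0.05, adjusted p = 2.37e-12). The IAA values were above the controls in both, and the controls of SED1 differed more than its IAA libraries did. CWP2 rose by 0.66 ± 0.07, PIR3 by 0.52 ± 0.06 and HSP150, of the same repeat family, by 0.47 ± 0.05, while TIR1 had 154 and 139 CPM in DMSO and 116 and 111 CPM in IAA (-0.38 ± 0.07, adjusted p = 0.000115).

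Genes of the daughter cell and of cell separation rose, by 7 of 9 tested genes with none lower and a median of 0.41, and the 7 calls held without each library. Most act in daughter cells and help to dissolve the septum. DSE1 had 149 and 157 CPM in DMSO and 254 and 300.5 CPM in IAA (0.87 ± 0.07, adjusted p = 1.27e-13). EGT2, a wall protein of separation, had 443 and 391 CPM in DMSO and 602 and 612 CPM in IAA (0.54 ± 0.06, adjusted p = 1.32e-09), and CTS1, the chitinase that cuts the septum, had 1209 and 1116 CPM in DMSO and 1393 and 1427 CPM in IAA (0.28 ± 0.05, adjusted p = 4.93e-05). All 3 were higher in both IAA libraries. ASH1, the daughter-cell repressor of mating-type switching, rose by 0.60 ± 0.09 and DSE3 by 0.65 ± 0.11.

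A list of genes of the pheromone response was added after values had been seen. Of its 15 tested genes 7 rose and 1 fell, with a median of 0.39, and in RNA 14 rose. Besides AGA1, PRM5 had 21.8 and 22.3 CPM in DMSO and 41.5 and 40.1 CPM in IAA (0.89 ± 0.13, adjusted p = 4.35e-07), and KAR4, a regulator of nuclear fusion genes, had 20.6 and 21 CPM in DMSO and 32 and 40.1 CPM in IAA (0.81 ± 0.13, adjusted p = 8.23e-06). GPA1, the G protein subunit of the pathway, rose by 0.56 ± 0.07. MF(ALPHA)1, the alpha-factor gene, had 1863 and 1756 CPM in DMSO and 2639 and 2453 CPM in IAA (0.49 ± 0.05, adjusted p = 1.57e-10). Summed a-cell marker counts were 22 and 16 in DMSO and 6 and 9 in IAA, beside 22 and 9 in DMSO and 4 and 3 in IAA for the 8 mitochondrially encoded genes, which cytosolic ribosomes do not translate.

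Histone genes had 7 of 10 tested genes higher and none lower, with a median of 0.23, although 4 were called without IAA replicate 1. HTB1 (H2B) had 526 and 439 CPM in DMSO and 689 and 699 CPM in IAA (0.52 ± 0.06, adjusted p = 8.12e-09), and HHT2 (H3) rose by 0.51 ± 0.06 with a similar gap between its controls. Histone gene pairs share most of their sequence, so single values are uncertain.

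Respiratory genes rose in part and from low levels. Of 10 tested genes of complex III and cytochrome c 4 rose and none fell (median 0.26), and of 9 of cytochrome c oxidase 4 rose and none fell (median 0.32). COR1, a core subunit of complex III, had 78.5 and 81.8 CPM in DMSO and 113 and 117 CPM in IAA (0.53 ± 0.08, adjusted p = 1.14e-06), and COX4 had 28.9 and 26.4 CPM in DMSO and 47.8 and 38.8 CPM in IAA (0.63 ± 0.12, adjusted p = 0.000138). Both were higher in each IAA library. Without IAA replicate 1 the counts were 2 and 1, and the oxidase had 2 when either DMSO replicate 2 or IAA replicate 2 was left out. DESeq2 called 1 in each list. Of 15 genes of the ATP synthase, none rose and 2 fell, with a median of 0.10, but 3 rose without DMSO replicate 1, and 7 rose and none fell under total-count scaling. In trehalose and glycogen synthesis 4 of 16 rose and 1 fell, and TSL1 and TPS2, subunits of the trehalose synthase complex, rose by 0.76 ± 0.12 and 0.44 ± 0.09.

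**Figure D4:**
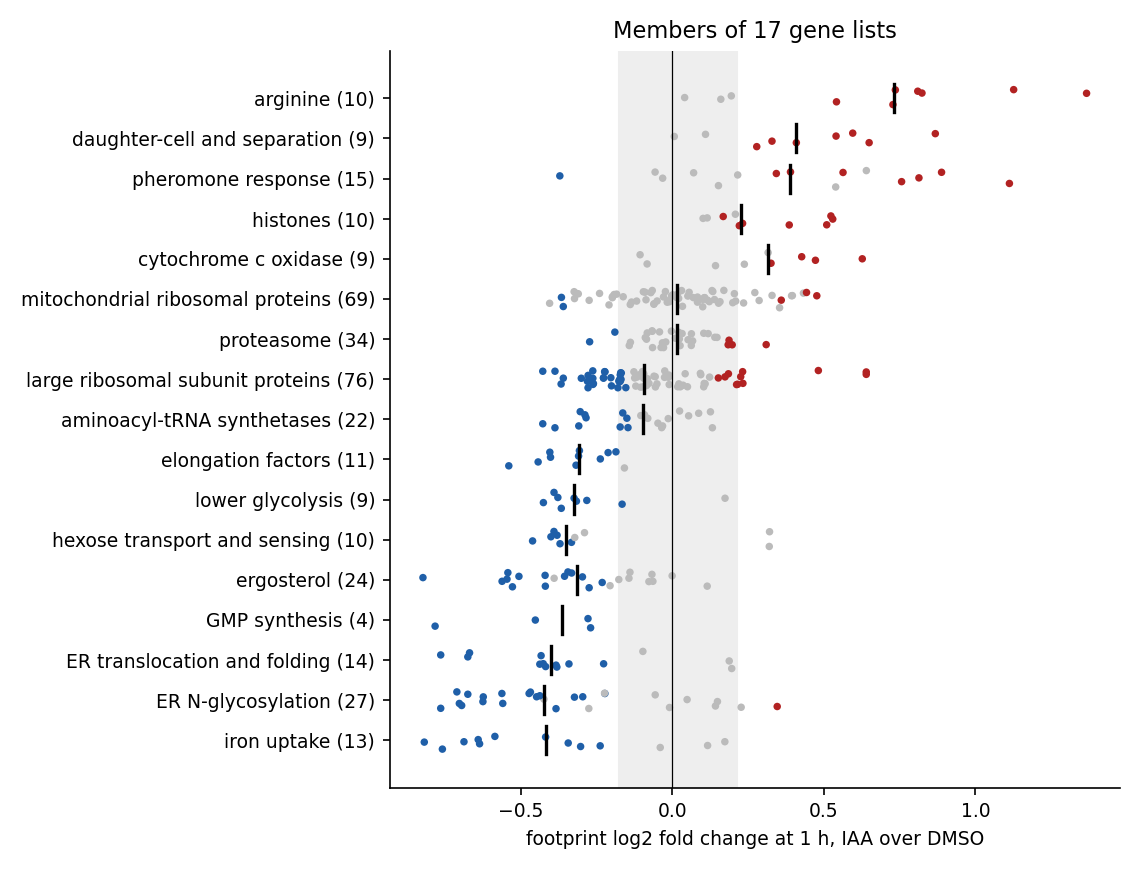
Log2 fold change of footprints (x axis) for the tested genes of each named list (y axis), 1 point per gene, coloured red (higher), blue (lower) or grey (did not pass) by the call at an adjusted p under 0.05, with a black bar at each list's median and a grey band from the lower to the upper quartile of all tested sequences. Nearly all points of ER, iron uptake, elongation and glycolysis lists lie left of 0, and those of arginine, daughter-cell and histone lists lie right of it.

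RNA of the same strain and time had been counted in 2 DMSO and 2 IAA libraries. This allowed the footprint change to be set against the RNA change of each gene in a model over all 8 libraries. Per the study's methods the 1 h RNA was selected by its poly(A) tail with oligo(dT) beads, so RNA here is what those beads captured. Whether capture changed with IAA was not tested. Of 6055 tested features, the footprint change was above the RNA change in 598 (9.88%) and below it in 629 (10.4%). These counts were not steady, at 300 to 382 above and 304 to 346 below without 1 footprint library (lowest without IAA replicate 2) and 996 and 938 with the replicate number as a block. Of the 1314 genes called in footprints and tested in RNA, 425 were called in RNA with the same sign and 175 with the opposite sign. Of the 94 genes that fell by the fold rule, 30 were lower in RNA and 20 were higher, and of 168 that rose and were tested in RNA, 62 were higher and 11 lower. Over all features tested in footprints, 20% were higher in RNA and 25.2% lower.

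Abundant RNAs of glucose use and protein folding fell much further than their footprints. HXK2 fell by 1.50 in RNA and fell by 0.30 in footprints, a difference of 1.14 ± 0.14 (adjusted p = 0.000656). ALD6, the cytosolic acetaldehyde dehydrogenase, had 2618 and 2625 CPM of footprints in DMSO and 2862 and 2637 CPM in IAA (0.07 ± 0.05, adjusted p = 0.31, and called at 0.25 under total-count scaling), beside an RNA fall of 1.79 and a difference of 1.79 ± 0.16 (adjusted p = 0.000418). For HXT2 the difference was 1.43 ± 0.15, for the cytosolic chaperone SSA2 1.28 ± 0.15 and for the Hsp90 gene HSC82 1.20 ± 0.14. SSA2 shares sequence with SSA1.

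The same held by list. Of 21 tested heat shock chaperones 11 fell in footprints (median -0.18, and -0.00 under total-count scaling) and 16 in RNA (median -1.14), and 14 had a footprint change above the RNA change with none below. Without IAA replicate 2, 6 fell in footprints. Of 34 proteasome genes 4 rose and 2 fell in footprints, 31 fell in RNA (median -0.57) and 21 differed, all with footprints above. Without DMSO replicate 1, DMSO replicate 2, IAA replicate 1 and IAA replicate 2 the proteasome had 3, 0, 1 and 1 genes higher and 1, 1, 2 and 0 lower in footprints. Of 69 mitochondrial ribosomal protein genes 3 rose and 2 fell in footprints and 45 fell in RNA (median -0.36), and 12 differed upward and 3 downward. The same 4 omissions gave 5, 1, 1 and 4 of these higher and 1, 1, 2 and 0 lower. Histone RNA fell in 9 of 10 genes while footprints rose in 7, with 8 of the 10 differing. The counts of differing genes in these lists come from the full model and were not repeated by list without 1 library. Over all genes such calls were not steady, as given above.

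In the opposite direction were genes with more RNA and no matching gain in footprints. Arginine RNA rose in all 10 genes (median 1.57), and in 7 of them the footprint change was below the RNA change. ARG1 rose by 2.80 in RNA and by 0.82 in footprints, a difference of -2.04 ± 0.41 (adjusted p = 0.00617). ARO9 differed by -0.92 ± 0.11, and ARO10 by 0.01 ± 0.14. The 2 Ehrlich genes thus had different relations of footprints to RNA.

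FRE2 rose by 1.32 in RNA while its footprints fell by 0.82, a difference of -2.20 ± 0.21 (adjusted p = 0.000418). ZRT2 rose by 0.77 in RNA and fell by 0.63 in footprints (difference -1.47 ± 0.14), and ARN1 rose by 0.57 in RNA and fell by 0.69 in footprints (difference -1.32 ± 0.21). Against most of their list, which was lower in RNA, the N-glycosylation genes ALG6 and ALG1 were higher in RNA by 0.21 and 0.42 and lower in footprints, with differences of -0.99 ± 0.11 and -1.05 ± 0.13. In these 5 genes the RNA and footprint changes were both called, with opposite signs. GCN4 had 0.07 in RNA (adjusted p = 0.651) against 1.21 in footprints, a difference of 1.09 ± 0.20 (adjusted p = 0.00453), and AIM17 differed by 1.64 ± 0.27. Each called difference given here kept its call without each 1 h footprint library in turn (RNA libraries were not left out), while the calls over all genes fell to between 260 and 323 above and between 255 and 280 below by the fold rule, from 386 and 379.

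**Figure D5:**
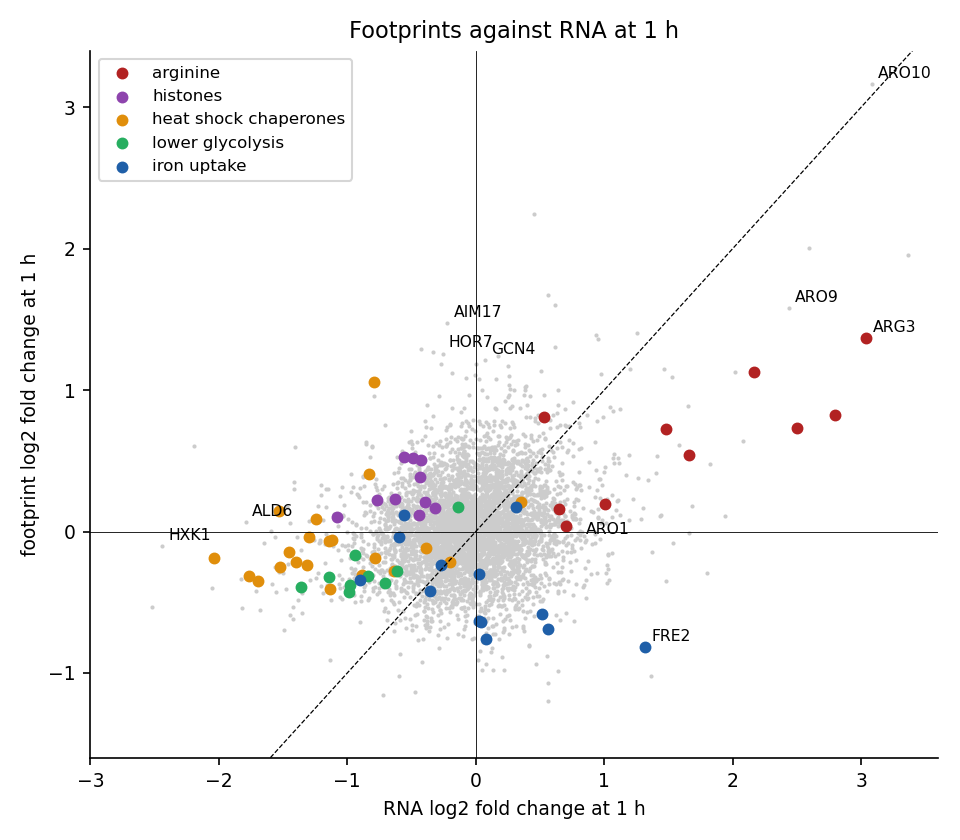
Footprint log2 fold change (y axis) against RNA log2 fold change (x axis) at 1 h, 1 point per gene tested in both, with the genes of 5 named lists coloured and a dashed line where both changes are equal. ARO10 lies at 3.08 in RNA and 3.16 in footprints, ALD6 at -1.79 and 0.07, and FRE2 at 1.32 and -0.82.

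At 8 h the footprint libraries had been made with another circularisation ligase and another reverse transcription primer, and rRNA was removed by subtractive hybridisation. The study's methods give these as adjustments to the 1 h protocol, so time and library preparation cannot be told apart. In 5034 features tested in both, the 1 h change was above the 8 h change in 246 (4.89%) and below it in 405 (8.05%). Without 1 of the 1 h libraries these were 77 to 164 above (lowest without IAA replicate 1) and 215 to 284 below, and among genes averaging 100 counts or more the balance turned, to 358 above and 334 below. In the 8 h footprints 11.1% of the features were higher and 13.2% lower. Arginine genes stood higher at 8 h, with 9 of 10 called and a median of 1.94, among them ARG1 at 2.57, and CPA1, not called at 1 h, was at 1.05. URA2 turned from -0.62 at 1 h to 1.61 at 8 h, MET6 from -0.54 to 0.99 and PHO89 from -0.94 to 1.16, with differences of -2.24 ± 0.12, -1.54 ± 0.15 and -2.12 ± 0.17. PAB1 and YEF3, at -0.69 and -0.54 at 1 h, had -0.11 (adjusted p = 0.51) and 0.14 (adjusted p = 0.4) at 8 h. In both genes the difference between the times passed the test, at -0.59 ± 0.11 and -0.69 ± 0.12.

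Some rises at 1 h were not seen at 8 h. CWP2 went from 0.66 to -0.59 and HTB1 from 0.52 to -0.37, both called at each time and with a difference that passed the test, at 1.24 ± 0.16 and 0.89 ± 0.14. PIR1 and DSE3 went from 0.62 and 0.65 to values of -0.09 and -0.37 that did not pass, with differences of 0.69 ± 0.13 and 1.02 ± 0.20. TIR1 was at -0.38 at 1 h and at -2.69 at 8 h (difference 2.30 ± 0.15). ER genes were lower at both times, with 8 of 13 tested translocation and folding genes lower at 8 h (median -0.38), and of the iron uptake genes 4 of 13 were lower and 1 higher at 8 h (median -0.10).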

How the data were processed

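The deposited values were whole-number counts of footprints per coding sequence made by the authors, not normalised, with a length in codons beside each count. Per the labels and the study's methods, footprints were circularised with CircLigase II at 1 h. The length column was 20 codons shorter than the reference coding sequence for 5969 of 6007 features. That length does not show which codons were left out of the counts. Trimming with cutadapt, alignment with STAR and the genome builds R64 and sacCer3 are named in the submitters' processing notes. Which counter was run, and whether it used strand, is not stated there or in the study's methods. Overlapping and antisense genes and near-identical copies (TEF, EFT, TDH, ENO, SSA, SSB, IMD, RPL41, other ribosomal protein pairs and histones) are therefore uncertain.

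Groups came from the sample titles. Counts were filtered with filterByExpr, scaled by TMM and tested with edgeR 4.0.16 (R 4.3.3, quasi-likelihood test) on the 4 libraries, with Benjamini-Hochberg adjustment over all tested sequences and thresholds of 0.05 and, for fold calls, 0.58 on the log2 scale. SE is a standard error worked back from the test, as the absolute log2 change divided by the square root of its F statistic. The footprint change less the RNA change, and the 1 h change less the 8 h change, were interaction terms of models over 8 libraries each. Summary entries of the RNA counter, 21.7 to 31.2% of RNA reads, were left out. Same-numbered 1 h footprint samples did not deviate together (correlation 0.029), so the numbers were not used as pairs. Whether the RNA or the 8 h libraries were paired by number was not examined. Replicates were separate libraries by their counts, with a chi-square of 3.07 (DMSO) and 1.44 (IAA) for each degree of freedom. The edgeR comparisons of footprints, of footprints with RNA and of 1 h with 8 h were run on simulated counts, with outcomes not given here. Alternatives were DESeq2 1.42.0, its size factors, total counts, other filters, the replicate block, a fit of all 8 footprint libraries and leaving out each library. Tables and figures used Python 3.11.15, pandas 2.3.3 and matplotlib 3.10.9.

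The gene lists, members and tests were chosen with earlier results of these data known, and 3 of the lists were added after their values had been seen. The rule for named genes took chosen regulators, the 12 largest rises and falls averaging 50 counts or more and without overlap of the groups, up to 4 members of each list by adjusted p, the 10 most abundant genes and the 4 largest differences each way of the other tests. It named 257 genes, of which 149 are not printed. Another 26 printed genes fall outside it and were chosen after their values were seen. Some genes are not reported here by name. Promoter windows, sequences and translated proteins came from the R64 reference.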

Additional observations from a re-analysis of the deposited data

Results flagged for a closer look

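For 52 genes named here, the change of footprints at 1 h differed from that at 8 h by the interaction term of edgeR's quasi-likelihood test (Benjamini-Hochberg adjusted p under 0.05), and the values below are the 1 h log2 change less the 8 h log2 change. Library preparation differed between the times, so its part and that of time cannot be told apart. Leaving out 1 of the 1 h libraries lost 11 to 19 of these calls.

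Amino acid genes stood lower at 1 h than at 8 h, with differences of -2.75 in MET5, -2.26 in ARG56, -1.97 in ARG3, -1.78 in ARG1, -1.62 in ARO1, -1.54 in MET6, -1.23 in ARG8, -1.04 in CPA1, -0.95 in ARG7 and -0.79 in ARG4. Genes of urea breakdown, pyrimidine synthesis, phosphate uptake and mating did too, at -2.41 in DUR12 (the DUR1,2 gene), -2.24 in URA2, -2.12 in PHO89 and -1.91 in AGA1. In glucose use the differences were -1.14 in HXK1, -0.84 in PFK1, -0.82 in HXT2 and -0.36 in PDC1. For HXK1 the levels at 1 h were 39.4 and 40.8 CPM in DMSO and 38.6 and 36.3 CPM in IAA.

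Translation and chaperone genes were lower at 1 h by -0.90 in ALA1, -0.71 in PRT1, -0.69 in YEF3, -0.66 in VAS1, -0.59 in PAB1, -0.55 in SSC1, -0.46 in EFT1, -0.46 in EFT2 and -0.33 in SSA1. The iron genes had -0.68 in ENB1, -0.65 in ARN2, -0.55 in FET3 and -0.52 in ARN1. NRE1 had -1.43, the decay helicase NAM7 -0.49 and GUA1 -0.37.

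Positive differences were found in the wall and daughter-cell genes TIR1 (2.30), CWP2 (1.24), DSE3 (1.02), PIR1 (0.69), ASH1 (0.66), EGT2 (0.57) and DSE1 (0.55). The histone genes HTB1 and HHT2 had 0.89 and 0.77. SRO77, a gene of exocytosis with 7.52 and 9.68 CPM in DMSO and 18.5 and 17.7 CPM in IAA at 1 h, had 1.92. Further values were 0.80 in COX4, 0.73 in PRM5, 0.64 in RPL29, 0.63 in TDH3, 0.50 in TDH2, 0.42 in RPS9A, 0.40 in ERG2 and 0.39 in RPS9B.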

How the results depend on the processing

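Of the 123 printed genes called in footprints, 119 kept their call without each library in turn, and none changed direction. The calls of MET5 and ITR2 were lost without IAA replicate 2, those of GCD1 and PRT1 without IAA replicate 1 and that of GCD1 also without DMSO replicate 2. DESeq2 kept 119, and total-count scaling lost ALA1, HSC82, RPS9B, VAS1, MET5, GCD1 and PRT1. The fold calls, 172 higher and 94 lower, became 67 and 52 with DESeq2, 84 and 55 in the fit of all 8 footprint libraries, 68 and 41 for genes averaging 100 counts or more, 575 and 768 with no minimum fold change and 512 and 13 with total-count scaling. At adjusted p alone DESeq2 called 159 higher and 412 lower, and the fit of all 8 libraries 151 and 323. Leaving out a library gave 141 to 175 higher and 87 to 107 lower. The footprint change exceeded the RNA change by the fold rule in 386 features and in 247 for genes averaging 100 counts or more, 260 to 323 without 1 library (379 and 255 to 280 below). The 1 h change exceeded the 8 h change in 160 features, in 75 with DESeq2 and in 64 to 124 without 1 library (lowest without DMSO replicate 2, then 70 without IAA replicate 1 and 79 without IAA replicate 2), and it was below in 296 and 206 to 259.

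Uncalled values changed sign when 1 library was left out. ARG2 ran from -0.041 (without IAA replicate 2) to 0.30, ARO80 from -0.12 (without IAA replicate 1) to 0.32, CPA1 from -0.16 (without IAA replicate 2) to 0.19, ORT1 from -0.054 (without IAA replicate 2) to 0.54 and CDC33 from -0.078 to 0.062 (without IAA replicate 2). CDC33 was at 0.025 when the filter asked for an average of 100 counts. Under total-count scaling CDC33 went to 0.17, ARO1 to 0.12, FBA1 to 0.11 and HXK1 to 0.080. With the replicate number as a block the footprint fold calls were 177 and 94, those against RNA 484 and 441, and those against 8 h 134 and 259, and the block lost none of the 123 calls. Low counts in the IAA libraries limit what can be seen. The cause of these shifts was not tested.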

Other observations

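Of 10 tested genes of decapping, decay and nonsense-mediated decay, 3 rose and 2 fell in footprints, beside 11.1% and 14.9% of all features, and 8 rose and 1 fell under total-count scaling. UPF3, which links nonsense-mediated decay to the ribosome, had 14 and 14.1 CPM in DMSO and 23.1 and 26.2 CPM in IAA (log2 change 0.82 ± 0.16, edgeR quasi-likelihood test, Benjamini-Hochberg adjusted p = 9.01e-05). NAM7, the decay helicase Upf1, had 93.6 and 97.6 CPM in DMSO and 74.8 and 68.7 CPM in IAA (-0.42 ± 0.09, adjusted p = 0.000197). EDC3, an enhancer of decapping, had 65.3 and 60.7 CPM in DMSO and 87 and 82.6 CPM in IAA (0.42 ± 0.09, adjusted p = 0.000295). The groups did not overlap in any of the 3, and UPF3 and NAM7, partners in one pathway, moved in opposite directions.

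PDR12, the plasma membrane pump for weak organic acids, had 109.9 and 105 CPM in DMSO and 189 and 177 CPM in IAA (0.76 ± 0.07, adjusted p = 9.25e-12), and it was at 0.90 at 8 h. Of the 12 tested genes of drug and weak-acid efflux, 2 rose and none fell, while 1 rose without DMSO replicate 1 and 1 fell without IAA replicate 1. IAA is itself a weak organic acid, and no library without the degron was used here to separate its effect from that of losing eIF4E. PCL1, a G1 cyclin of the Pho85 kinase, had 38.6 and 35.8 CPM in DMSO and 61.6 and 60.7 CPM in IAA (0.71 ± 0.11, adjusted p = 1.13e-06), while its RNA fell by 0.51.

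SRB2, a subunit of the Mediator complex, and NCP1 are neighbours on chromosome VIII (YHR041C at 189131 to 189864 on the minus strand and YHR042W at 190543 to 192618 on the plus strand of R64), and both were among the 12 largest falls. SRB2 had 20.2 and 17.7 CPM in DMSO and 9.89 and 10.3 CPM in IAA (-0.91 ± 0.19, adjusted p = 0.000231), beside an RNA value of 0.02 (adjusted p = 0.84). NCP1 fell by 0.82 in footprints and fell by 0.29 in RNA. For both the footprint change was below the RNA change, by -0.99 ± 0.18 and -0.60 ± 0.11.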
